A study of Mus musculus with 6 samples.

Results

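Chromatin accessibility was examined at the collagen genes of the mouse forelimb bud, in the presence and absence of the HOX13 transcription factors. The collagen genes were the 42 autosomal protein-coding genes whose symbol is Col, a number, a and a number, and a peak was counted with a gene when its midpoint lay in the gene or within 50 kb of the gene's annotated start. This took 313 peaks, and 312 of the 61954 peaks in the series were described after an extreme peak at Col19a1 had been set aside. All 42 genes had at least 1 peak, with a median of 6 and at most 28 per gene. Of the 312 peaks, 203 lay in the body of a collagen gene, 168 of them in an intron, and 109 lay outside. A total of 14 peaks were within reach of 2 collagen genes, and 85 peaks were closer to the start of a gene that is no collagen gene, so membership is one of position and does not say which gene a peak serves.

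The data are ATAC-seq libraries, in which the Tn5 transposase cuts and tags open DNA, from distal forelimb buds at E11.5. Of these, 2 were made from wild-type buds and 2 from buds of Hox13-/- embryos, which lack both Hoxa13 and Hoxd13 through the Hoxa13null (Hoxa13 Str) and Hoxd13null (Hoxd13 lacZ) alleles. All mice were on a mixed background of C57Bl/6 and 129, and each library came from 50000 cells of the paired forelimb buds of a single embryo, so the cell types of the distal bud were pooled. The 2 proximal libraries listed with the study were not analysed here. Values are rLog, a log2-scale measure of reads per peak that is shrunk towards the mean of the peak, so that differences understate those of weakly covered peaks. A peak was called lower or higher in Hox13-/- at a Benjamini-Hochberg adjusted p under 0.05 (limma over all peaks, two-sided). In a bulk library, a loss of cells of one type and a loss of accessibility within each cell cannot be told apart.

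Replicate libraries differed by a root mean square of 0.180 in wild type and at 0.176 in Hox13-/- over all peaks. Over the mutated genes themselves 3 peaks were listed. A Hoxd13 peak stood at 4.06 and 4.17 in wild type and at 3.70 and 3.50 in Hox13-/- (difference -0.52, limma adjusted p = 0.00061), whereas the other Hoxd13 peak and the Hoxa13 peak differed by 0.03 and -0.08. Accessibility over these genes does not check whether their products are absent. Promoter peaks were found for 19 of the 41 autosomal cell type markers examined. Of their 28 peaks 1 was lower, at a limb mesenchyme gene, and 0 were higher. Over all peaks within 1 kb of a protein-coding gene start, 8.85% were lower and 0.672% higher. Summed over each list (log2 of the sum of the unlogged values), accessibility of the limb mesenchyme promoters was 9.04 to 9.11 in wild type and 9.09 to 9.11 in Hox13-/-. Chondrogenic promoters (Acan, Sox5, Sox6 and Sox9) summed to 7.46 in both wild-type libraries and to 7.36 and 7.37 in the Hox13-/- ones. Among the other lists, endothelium ranged from 7.26 to 7.31 and from 7.18 to 7.35, ectoderm from 6.59 to 6.89 and from 6.57 to 6.65, muscle precursor from 5.87 to 5.94 and from 5.74 to 5.95, and nerve and Schwann from 6.83 to 6.97 and from 6.64 to 6.66, in wild type and Hox13-/- respectively. Blood had a promoter peak at Klf1 only, at 3.10 and 3.16 in wild type and at 2.98 and 3.02 in Hox13-/-. A part of these cell types in the differences below was not tested.

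Collagens are triple-helical proteins of the extracellular matrix, and each class assembles in its own way. Fibrillar collagens form the banded fibrils of bone, skin, tendon and cartilage, network collagens form the sheets of basement membranes and related layers, and the fibril-associated collagens with interrupted triple helices (FACIT) coat the fibrils. Beaded filament collagens make microfibrils around cells, transmembrane collagens sit in the plasma membrane with a collagenous ectodomain, and multiplexins are proteoglycans of basement membranes. In the limb bud, the mesenchyme first makes a loose matrix with type I and type III collagen, and the cells that condense into the skeleton switch on Col2a1, Col9a1 and Col11a1 under SOX9, SOX5 and SOX6. HOXA13 and HOXD13 are needed for digit formation and bind AT-rich motifs.

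The sequences below are those of the 3 lower and the 3 higher collagen peaks with the largest differences that touch no exon, to show the DNA whose accessibility differed most (mm10, plus strand, up to 300 bases around the midpoint of the peak). Capitals mark the words searched on both strands. The 4 HOX13-type words were CAATAAA and its variant CCATAAA, together with the forms TAATAAA and, with a changed second base, TCATAAA. The SOX-type word was AACAAT.
Col8a1 intron, lower, chr16:57733245-57733544: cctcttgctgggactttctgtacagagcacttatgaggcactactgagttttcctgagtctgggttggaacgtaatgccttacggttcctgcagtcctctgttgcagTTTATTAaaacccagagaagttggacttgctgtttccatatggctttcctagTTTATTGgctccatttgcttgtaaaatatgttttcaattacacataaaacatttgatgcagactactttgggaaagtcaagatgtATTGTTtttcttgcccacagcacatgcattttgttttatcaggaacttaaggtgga
Col12a1 upstream, lower, chr9:79720991-79721286: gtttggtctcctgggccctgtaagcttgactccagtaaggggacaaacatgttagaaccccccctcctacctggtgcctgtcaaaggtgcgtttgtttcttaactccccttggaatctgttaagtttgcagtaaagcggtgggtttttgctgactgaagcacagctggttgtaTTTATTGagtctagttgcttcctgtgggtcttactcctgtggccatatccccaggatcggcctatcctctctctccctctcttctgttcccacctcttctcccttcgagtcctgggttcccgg
Col25a1 intron at +393 kb, lower, chr3:130524500-130524722: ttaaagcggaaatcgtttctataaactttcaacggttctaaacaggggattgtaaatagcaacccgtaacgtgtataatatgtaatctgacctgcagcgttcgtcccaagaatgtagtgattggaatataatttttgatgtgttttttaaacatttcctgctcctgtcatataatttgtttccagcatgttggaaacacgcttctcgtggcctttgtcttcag
Col25a1 intron at +163 kb, higher, chr3:130294164-130294463: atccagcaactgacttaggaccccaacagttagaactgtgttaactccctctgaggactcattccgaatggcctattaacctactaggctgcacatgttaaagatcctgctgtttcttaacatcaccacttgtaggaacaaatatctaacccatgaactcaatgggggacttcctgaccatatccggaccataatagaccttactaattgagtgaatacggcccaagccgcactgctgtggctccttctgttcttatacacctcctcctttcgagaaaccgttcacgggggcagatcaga
Col25a1 intron at +172 kb, higher, chr3:130303565-130303864: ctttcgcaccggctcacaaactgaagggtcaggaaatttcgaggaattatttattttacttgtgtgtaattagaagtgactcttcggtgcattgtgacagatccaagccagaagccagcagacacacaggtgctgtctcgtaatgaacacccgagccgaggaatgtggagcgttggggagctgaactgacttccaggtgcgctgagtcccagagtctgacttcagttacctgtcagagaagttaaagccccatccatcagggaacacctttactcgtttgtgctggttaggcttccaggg
Col9a1 intron, higher, chr1:24240093-24240392: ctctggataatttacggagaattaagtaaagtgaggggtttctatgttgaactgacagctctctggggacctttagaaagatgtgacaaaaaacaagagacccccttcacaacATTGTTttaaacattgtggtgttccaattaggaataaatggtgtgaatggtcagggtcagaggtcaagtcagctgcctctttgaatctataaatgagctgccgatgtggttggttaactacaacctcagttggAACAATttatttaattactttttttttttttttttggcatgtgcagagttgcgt

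In these windows the Col8a1 sequence held 2 HOX13-type words and 1 SOX-type word, the Col12a1 sequence 1 HOX13-type word, and the Col9a1 sequence 2 SOX-type words. The 3 Col25a1 sequences held 0 of either kind, although the full 700 bases of the peak at +172 kb held 1 HOX13-type word outside the bases shown. Over whole peaks, a HOX13-type word was present in 61 of the 312 collagen peaks (19.6%), against 20.8% of all peaks. It was present in 6 of the 23 lower collagen peaks (26.1%) and in 11 of the 34 higher ones (32.4%), and over all lower and all higher peaks in 33.0% and 37.6%. The SOX-type word was present in 31 collagen peaks (9.94%, against 10.2% of all peaks), 4 of them lower and 9 higher. Higher collagen peaks were longer, with a median of 396.5 bases against 223 for lower and 231 for uncalled ones, and longer peaks hold more words. In the central 200 bases, the same length for every peak, HOX13-type words were in 12.8% of collagen peaks and 16.5% of all peaks, with 5 of 23 lower (21.7%) and 5 of 34 higher (14.7%), against 26.6% of all lower and 22.8% of all higher peaks. SOX-type words were there in 7.37% of collagen peaks and 7.06% of all peaks, with 4 lower (17.4%) and 6 higher (17.6%), against 8.01% of all lower and 9.86% of all higher peaks. The word CAATAAA can overlap AACAAT, which happened in 2 collagen peaks, neither of them among the sequences printed. The GC content had a median of 45.2% in lower, 48.9% in higher and 54.8% in uncalled collagen peaks.

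Accessibility at the collagen genes changed in both directions in Hox13-/- distal buds. Of the 312 peaks, 23 were lower (7.37%, against 8.31% of all peaks tested) and 34 were higher (10.9%, against 11.4% of all peaks), while 255 were not called. These shares lie near those over all peaks. The median difference, Hox13-/- minus wild type, was 0.04 over the collagen peaks and -0.01 over all peaks. After every library had been centred on its own median, the collagen counts were 28 lower and 31 higher, and over all peaks the split moved from 5146 lower and 7040 higher (57.8% of calls higher) to 6811 lower and 6017 higher (46.9%). At an unadjusted p under 0.05 there were 39 lower and 60 higher collagen peaks. A difference of over 2-fold was met by 0 lower collagen peaks, against 0.224% of all peaks, and by 1 higher one, in Col25a1, against 0.313% of all peaks.

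**Figure D1:**
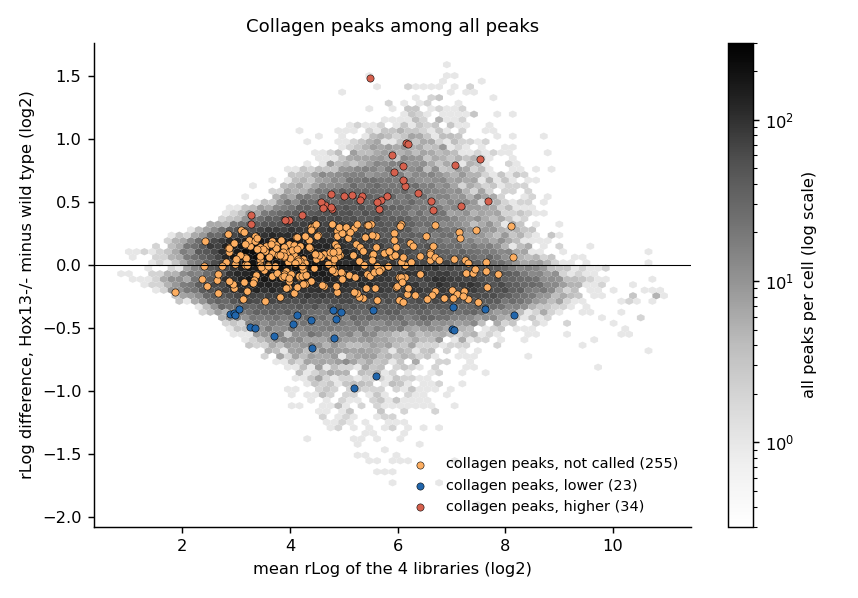
Difference in rLog (Hox13-/- minus wild type, log2) against the mean rLog of the 4 libraries, with all peaks in grey (shade, number of peaks per cell on a log scale) and the 312 collagen peaks as points coloured by call. The 86 peaks with a mean of 11 or more are not drawn, and the collagen peaks spread over most of the range of signal, with 1 point, in Col25a1, beyond a difference of 1.

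The called peaks were mostly away from promoters. Judged by midpoint, 22 of the 34 higher peaks lay in introns and 12 were intergenic. Of the 34, 0 had their midpoint in an exon or within 1 kb of any protein-coding gene start. Of the 23 lower peaks, 11 had their midpoint in an intron, 9 were intergenic and 3 had it in an exon. In all, 5 of the 23 were within 1 kb of a gene start. Over all peaks, 101 of the 7040 higher and 1331 of the 5146 lower ones were within 1 kb of a gene start. Peak calling per library, which is a separate step from the rLog values but uses the same reads, had found 18 of the 34 higher peaks in both Hox13-/- libraries and in no wild-type library. This pattern held for 43 of the 312 collagen peaks and for 11.2% of all peaks. Among the 7040 higher peaks of the whole series it held for 3425, so it is common at higher peaks in general. The opposite pattern, found in both wild-type libraries and in no Hox13-/- library, held for 4 of the 23 lower peaks, for 7 of all collagen peaks and for 2.98% of all peaks. Among the 5146 lower peaks of the whole series it held for 1250.

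By gene, 15 of the 42 collagen genes had a lower peak and 20 a higher peak. Both kinds occurred at 9 genes, only lower ones at 6, only higher ones at 11 and neither at 16. A gene with more peaks has more occasion to hold a call, and the same count over all genes was not made. For the classes, the shares to set beside theirs are 8.31% lower and 11.4% higher over all peaks. The transmembrane collagens had 4 lower (6.25%) and 11 higher (17.2%) of 64 peaks (median difference 0.08). The multiplexins had 0 lower and 3 higher (16.7%) of 18 peaks (median 0.20, with 15 of 18 peaks above 0). Fibrillar collagens had 7 lower (9.09%) and 5 higher (6.49%) of 77 peaks (median 0.03). Network collagens had 7 lower (13.2%) and 5 higher (9.43%) of 53 peaks (median -0.00). FACIT collagens had 2 lower (3.92%) and 4 higher (7.84%) of 51 peaks (median 0.02). Beaded filament collagens had 3 lower (12%) and 4 higher (16%) of 25 (median 0.08). Col26a1 and Col28a1 together had 0 lower and 2 higher (9.52%) of 21 (median 0.02). Col7a1, the anchoring fibril collagen, had 0 of its 3 peaks called in either direction. Differences between classes were not tested, and the counts of single classes rest on few calls. With 1 library left out, the multiplexins had 1 to 4 higher peaks (1 without wild-type replicate 1), Col26a1 and Col28a1 0 to 2 (0 without Hox13-/- replicate 1, 1 without wild-type replicate 2) and the network collagens 2 to 4 (2 without wild-type replicate 2, 3 without wild-type replicate 1 or Hox13-/- replicate 2). The FACIT collagens had 2 to 3 higher peaks (2 without Hox13-/- replicate 1) and the beaded filament collagens 2 to 3 (2 without wild-type replicate 2). Lower peaks numbered 1 to 3 at the beaded filament collagens (1 without wild-type replicate 2 or Hox13-/- replicate 1), 4 to 6 at the fibrillar (4 without wild-type replicate 1 or Hox13-/- replicate 1), 4 to 5 at the network (4 whenever the library left out was not wild-type replicate 1) and 2 to 3 at the transmembrane collagens (2 without Hox13-/- replicate 1).

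**Figure D2:**
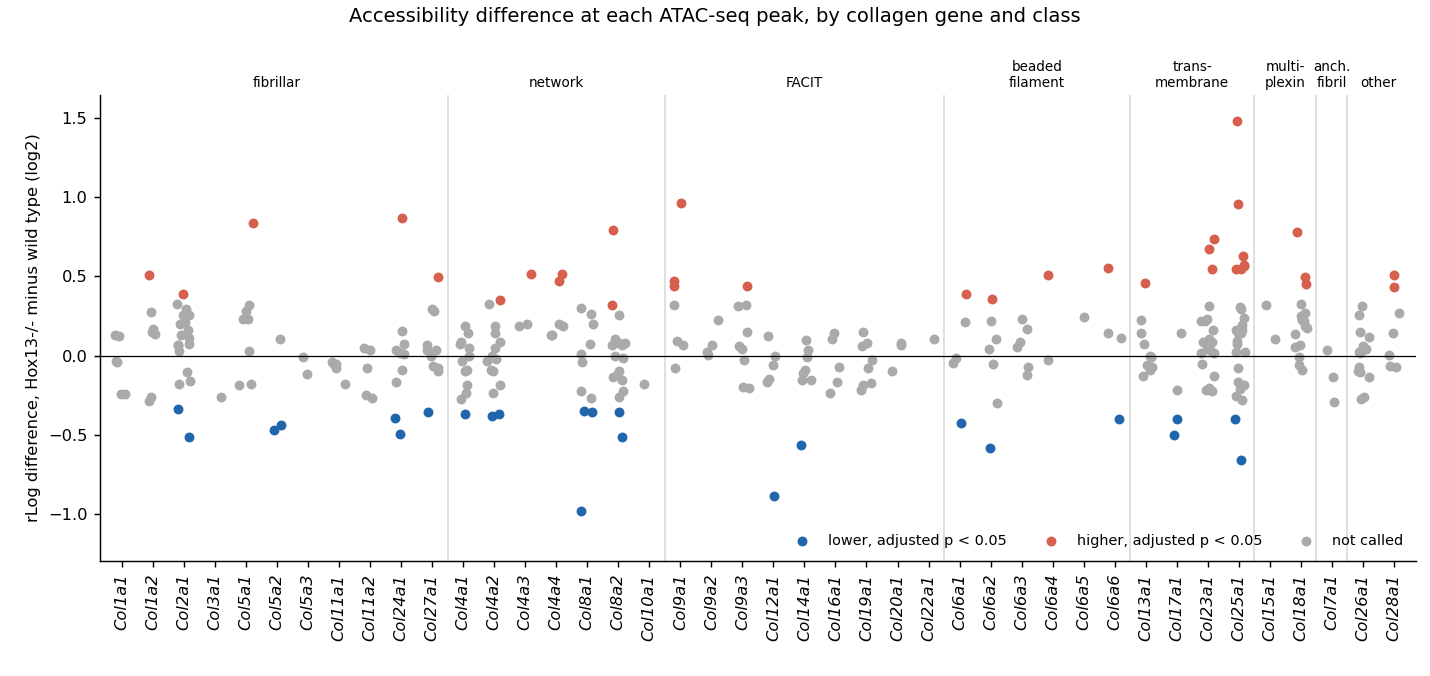
Difference in rLog (Hox13-/- minus wild type, log2) at every collagen peak, by gene and class, with each point 1 peak coloured by its call and peaks within reach of 2 genes drawn at both. Higher peaks are stacked at Col25a1, where 7 of 28 peaks were higher and 2 lower, and lower and higher peaks stand side by side at 9 genes.

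Few promoter peaks of the collagen genes were called. A peak within 1 kb of the gene start was present at 26 of the 42 genes, 41 peaks in all, of which 1 was lower (against 8.85% of all promoter peaks) and 0 were higher (against 0.672%). At an unadjusted p under 0.05 there were 5 lower and 0 higher. The median difference was -0.01 at collagen promoters and -0.12 over the 15038 promoter peaks. Collagen promoter peaks were weaker (median wild-type rLog 4.87 against 6.09) and shorter (median 245 against 410 bases), so these shares and medians are not like for like. The lower one was 1 of 2 promoter peaks at Col27a1, a fibrillar collagen of cartilage, of which the other differed by 0.03. The lower peak stood at 5.79 and 5.65 in wild type and at 5.28 and 5.44 in Hox13-/-. Its difference was -0.36 (SE 0.13, limma adjusted p = 0.033), and the call was lost without wild-type replicate 1 or Hox13-/- replicate 1 (adjusted p up to 0.262) and after correction for GC content.

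Corrected for peak length (wild-type mean rLog minus log2 of the length in kb), the promoter level was highest at Col11a1, a minor fibrillar collagen of cartilage, at 8.18, followed by Col6a2 at 7.86, Col5a1 at 7.81 and Col16a1 at 7.74. It was lowest at Col8a2 at 5.29 and Col6a1 at 5.72. At the Col11a1 promoter the rLog values were 7.46 and 7.88 in wild type and at 7.62 and 7.61 in Hox13-/-, so that the groups overlapped. Col1a2, which encodes the second chain of type I collagen, stood at 7.07 and 7.24 in wild type and at 6.90 and 6.89 in Hox13-/- (difference -0.26, SE 0.13, limma adjusted p = 0.13). Col3a1, the type III collagen of loose connective tissue, stood at 5.32 and 5.64 and at 5.30 and 5.13 (difference -0.26, adjusted p = 0.15). Both promoters were below wild type in each Hox13-/- library without passing the test. For Col2a1, the main collagen of cartilage, the promoter peak stood at 6.78 and 6.54 and at 6.58 and 6.87 (difference 0.06), with overlapping groups. Col4a1 and Col4a2, the basement membrane pair that is transcribed in opposite directions from a common promoter, shared 3 promoter peaks. The one with the highest mean rLog differed by -0.03, the others by -0.19 and -0.00, and none was called. Col4a3 and Col4a4 shared 1 promoter peak (difference 0.19). Over the other 17 genes with a promoter peak, the difference ran from -0.30 at Col6a2 to 0.23 at Col6a3, and none was called. No promoter peak was listed at 16 genes, among them Col1a1, Col9a1, Col10a1, Col14a1 and Col25a1. At Col1a1 a strong peak lay just past the limit, with its midpoint at +1.011 kb. It stood at 7.36 and 7.54 in wild type and at 7.46 and 7.36 in Hox13-/-.

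The largest loss at a collagen gene was in an intron of Col8a1, 21.3 kb into the gene, whose product is a short-chain collagen of subendothelial matrix and cornea. Accessibility there was 5.73 and 5.64 in wild type and at 4.86 and 4.55 in Hox13-/-, a difference of -0.98 (SE 0.13, limma adjusted p = 1.0e-11). Both mutant libraries lay well below both wild-type ones, and the peak had been found in the 2 wild-type libraries and in 0 Hox13-/- libraries. This is the sequence printed above with 2 HOX13-type words. Of the 11 Col8a1 peaks 3 were lower and 0 higher. The other lower peaks, at +49.7 and +77.9 kb, differed by -0.36 and -0.35. The call at +49.7 kb was lost whichever library was left out (differences from -0.40 to -0.31). The call at +77.9 kb was lost without wild-type replicate 2 or Hox13-/- replicate 1 (range over all left-out libraries -0.48 to -0.23).

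The next loss was 2.3 kb upstream of Col12a1, a FACIT collagen of tendon, ligament and perichondrium, at 6.05 and 6.03 in wild type and at 5.24 and 5.07 in Hox13-/-. The difference was -0.89 (SE 0.13, limma adjusted p = 9.4e-10), and the groups were far apart. Within 1 kb of the Col12a1 start, the stronger promoter peak differed by -0.17 (limma adjusted p = 0.37). A weaker one, at -0.791 kb, differed by 0.12, and neither was called. Another FACIT gene, Col14a1, had an intronic peak at +88.0 kb at 4.09 and 3.89 in wild type and at 3.50 and 3.35 in Hox13-/- (difference -0.57, SE 0.12, limma adjusted p = 9.8e-05). Both FACIT genes had 1 lower peak and 0 higher ones.

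At Col2a1, 19 peaks were listed, of which 2 were lower and 1 was higher. A peak 40.5 kb from the start stood at 7.34 and 7.25 in wild type and at 6.83 and 6.73 in Hox13-/- (difference -0.52, SE 0.13, limma adjusted p = 0.00062), but it lies beyond the 3' end of the gene and is nearest to the start of Tmem106c. The intronic peak at +11.7 kb stood at 7.32 and 7.07 and at 6.80 and 6.91 (difference -0.34, adjusted p = 0.040), and a weak upstream peak at -22.5 kb at 4.11 and 3.95 and at 4.33 and 4.52 (difference 0.39, adjusted p = 0.017). Groups did not overlap at any of the 3 peaks, but the intronic and the upstream call were each lost after correction for GC content. The intronic call was also lost without wild-type replicate 1 or either Hox13-/- replicate, and with quantile or cyclic loess scaling. The upstream call was also lost without wild-type replicate 2 or Hox13-/- replicate 2. The other 16 Col2a1 peaks were not called.

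Of the other lower peaks among the 12 with the largest loss, those at Col6a2 and Col24a1 lay upstream of the gene and kept their call with any 1 library left out. The Col6a2 peak at -48.5 kb, near the gene for a chain of the beaded filaments, stood at 5.07 and 5.14 in wild type and at 4.58 and 4.46 in Hox13-/- (difference -0.58, SE 0.13, limma adjusted p = 0.00016). The Col24a1 peak at -7.19 kb, near a minor fibrillar collagen of developing bone, stood at 3.57 and 3.45 and at 3.02 and 3.01 (difference -0.50, SE 0.12, adjusted p = 0.00037). In each case both Hox13-/- libraries were below both wild-type ones.
The lower peaks at +34.8 kb from Col8a2 (difference -0.51, over an exon of Adprhl2) and at -22.9 kb from Col17a1 (difference -0.50, nearest to Sfr1) were closer to another gene. At Col5a2, a partner of Col5a1 in type V collagen, 2 adjoining intronic peaks at +117 kb differed by -0.47 and -0.44. Both are nearest to the start of Col3a1. At Col6a1 a peak at -9.04 kb differed by -0.43. These 5 calls, at Col8a2, Col17a1, both Col5a2 peaks and Col6a1, were each lost without at least 1 of the 4 libraries, with adjusted p from 0.0511 to 0.431. The library on which they rested was wild-type replicate 2 for Col17a1, Hox13-/- replicate 2 for Col8a2, and wild-type replicate 2 or Hox13-/- replicate 1 for Col6a1 and for the Col5a2 peak with a difference of -0.44. For the other Col5a2 peak it was wild-type replicate 1 or Hox13-/- replicate 2.

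**Figure D3:**
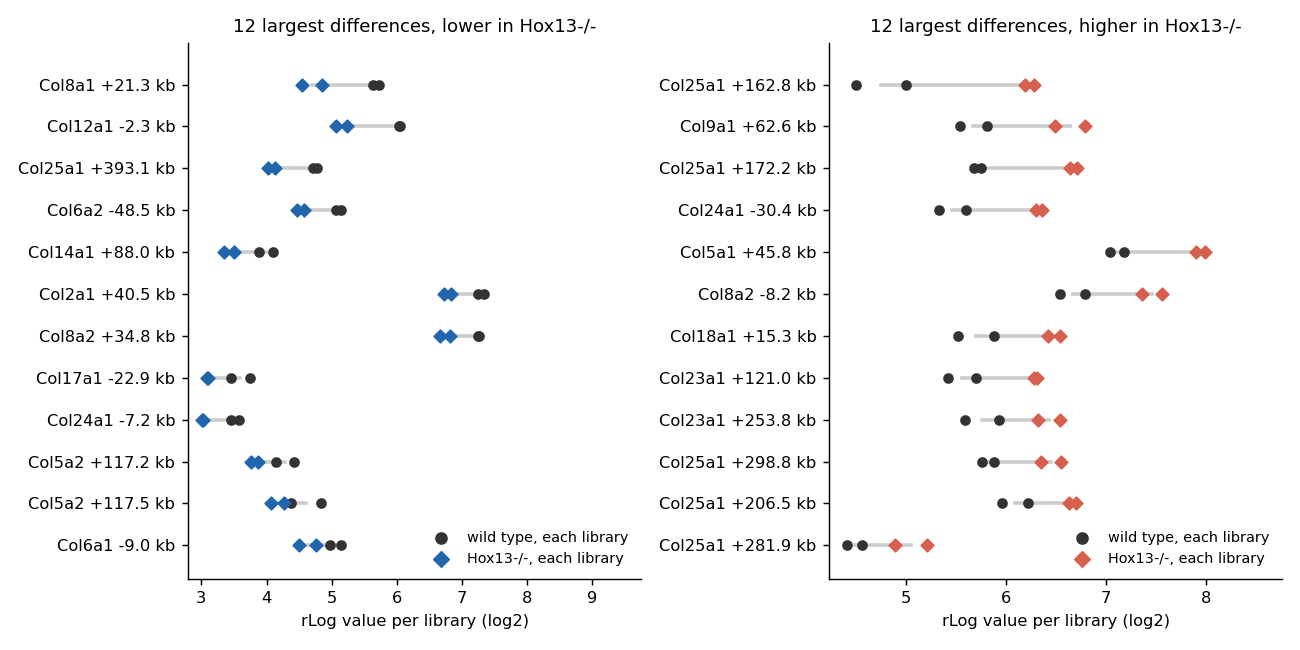
rLog value (log2) in each of the 4 libraries at the 12 lower (left) and 12 higher (right) collagen peaks with the largest differences among called peaks, labelled by gene and distance from the gene start, with a line joining the genotype means. Wild-type (circles) and Hox13-/- (diamonds) libraries do not overlap in any row, which the choice of peaks required, and the longest line is the Col25a1 peak at +162.8 kb.

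By count, gains were most frequent at Col25a1, a transmembrane collagen that motor axons need to innervate muscle, which is also the longest of the genes with 468 kb and has the most peaks, 28. The peak at +163 kb, in an intron, was at 4.50 and 5.00 in wild type and at 6.28 and 6.19 in Hox13-/-. Its difference of 1.48 (SE 0.13, limma adjusted p = 1.5e-26) was larger than the spread of the libraries and the only one at a collagen gene past 2-fold. The peak at +172 kb stood at 5.68 and 5.75 in wild type and at 6.64 and 6.71 in Hox13-/- (difference 0.96, SE 0.13, adjusted p = 1.3e-11). Both had been found in 0 wild-type and 2 Hox13-/- libraries.

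In all, 7 Col25a1 peaks were higher, all in introns between +163 and +299 kb, a stretch with 14 peaks, of which 1 was lower. Those at +299, +207 and +282 kb differed by 0.63, 0.57 and 0.56, and the remaining pair by 0.54 and 0.55. Of the 7, 5 kept their call with any 1 library left out, while the call at +282 kb was lost without Hox13-/- replicate 1 (difference 0.40, adjusted p = 0.0783) and 1 of the remaining pair, with a difference of 0.55, without wild-type replicate 2 (adjusted p = 0.0911). Further along the gene, at +393 kb, a peak went the other way, from 4.78 and 4.71 in wild type to 4.03 and 4.14 in Hox13-/- (difference -0.66, SE 0.13, limma adjusted p = 1.0e-05). A second lower peak, at +270 kb, differed by -0.40 and lost its call without wild-type replicate 1 or either Hox13-/- replicate (adjusted p up to 0.171). Without Col25a1, the collagen counts were 21 lower and 27 higher of 284 peaks. The last stretch of the gene is nearest to the start of Etnppl, which includes the peaks at +282, +299 and +393 kb.

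**Figure D4:**
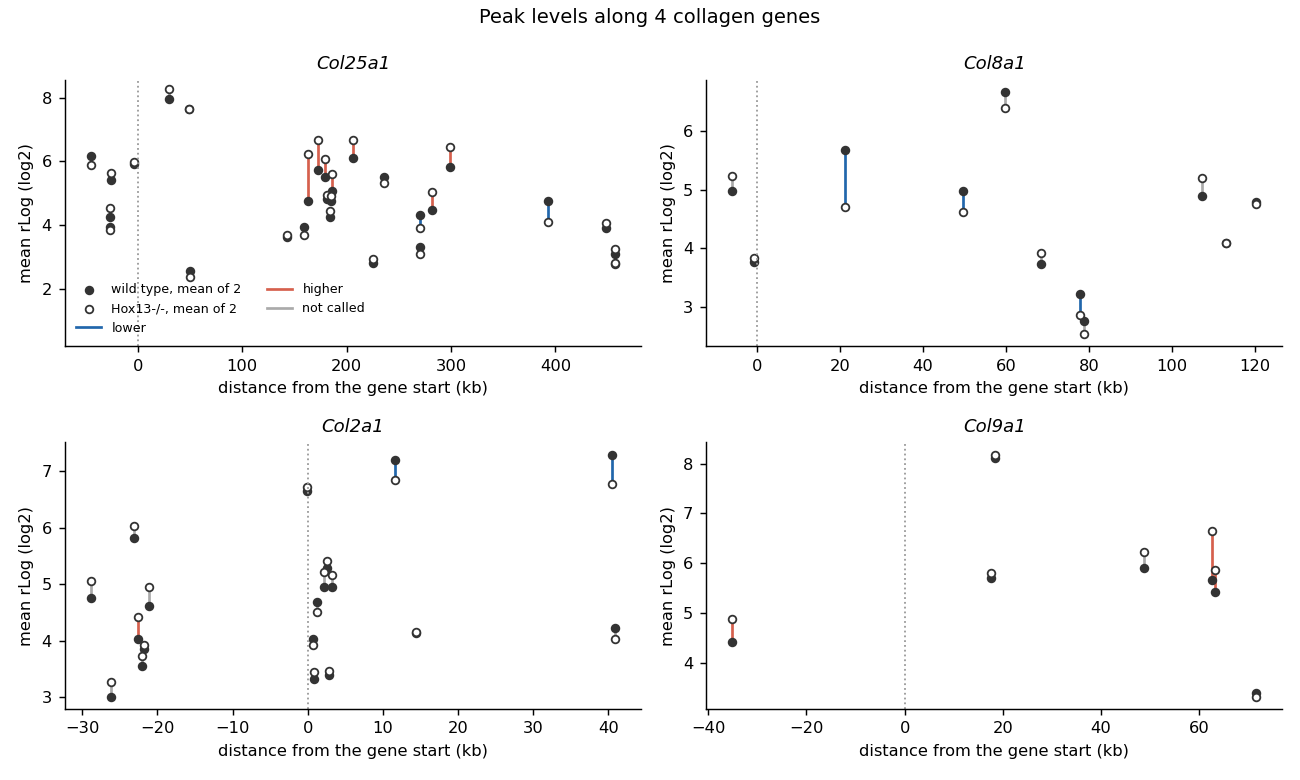
Mean rLog (log2) of wild type (filled) and Hox13-/- (open), 2 libraries each, at every peak of 4 collagen genes against distance from the gene start in kb, with the line between the means coloured by call. At Col25a1 the higher peaks lie between +163 and +299 kb and a lower one at +393 kb, at Col8a1 all 3 called peaks are lower, and at Col2a1 and Col9a1 the called peaks lie away from the gene start (dotted line).

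Among the cartilage collagens, Col9a1, a FACIT collagen that coats type II fibrils, had 3 higher and 0 lower of 7 peaks. The peak at +62.6 kb, in an intron, stood at 5.81 and 5.53 in wild type and at 6.79 and 6.49 in Hox13-/- (difference 0.97, SE 0.13, limma adjusted p = 9.6e-12), and carries the 2 SOX-type words shown above. Its neighbour at +63.2 kb stood at 5.39 and 5.47 and at 5.83 and 5.90 (difference 0.44), and an upstream peak at -35.1 kb at 4.53 and 4.31 and at 4.95 and 4.83 (difference 0.47). All 3 were higher in both Hox13-/- libraries than in either wild-type one, and the 2 smaller ones lost their call when 1 library was left out (adjusted p up to 0.0751 and 0.128). Col9a3, another chain of type IX collagen, had 1 higher of 9 peaks, at -22.9 kb (difference 0.44, also lost when 1 library was left out). That peak is nearest to the start of Mrgbp. Col9a2, the remaining chain, had 0 called of 4. The partners of type II collagen in cartilage fibrils, Col11a1 and Col11a2, had 0 called of 5 peaks each. Of the Col11a2 peaks, 4 lay at the starts of other genes, H2-K1, Ring1, H2-Ke6 and Slc39a7. Col10a1, a marker of hypertrophic cartilage, had 1 peak, not called, which lay in an exon of Nt5dc1, 28.5 kb from the Col10a1 start.

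The type I collagen genes showed a single change. Col1a1 had 6 peaks with differences from -0.24 to 0.13, none called. Col1a2 had 7 peaks, of which the one at -20.6 kb was higher, at 7.38 and 7.45 in wild type and at 7.91 and 7.94 in Hox13-/- (difference 0.51, SE 0.12, limma adjusted p = 0.00062). The groups were apart and the call was kept with any 1 library left out.

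Among the other fibrillar and network collagens, Col5a1, which sets the width of type I fibrils, had a strong intronic peak at +45.8 kb at 7.04 and 7.18 in wild type and at 7.91 and 7.99 in Hox13-/- (difference 0.84, SE 0.12, limma adjusted p = 1.8e-09). Upstream of Col24a1, at -30.4 kb, a peak stood at 5.59 and 5.33 and at 6.30 and 6.36 (difference 0.87, SE 0.13, adjusted p = 1.7e-09). Upstream of Col8a2, at -8.23 kb, a peak stood at 6.79 and 6.54 and at 7.56 and 7.36 (difference 0.79, SE 0.13, adjusted p = 2.3e-08). At each the Hox13-/- libraries were above the wild-type ones. Col24a1 and Col8a2 thus had called peaks in both directions, and Col8a2, with 2 lower and 2 higher, had the most called peaks of the network collagens. Of the basement membrane genes, Col4a4 had 2 higher of 6 peaks, at +42.2 kb (difference 0.52) and +110 kb (difference 0.47). The first was also within reach of Col4a3, and the second lost its call without wild-type replicate 2 (difference 0.31). Col4a2 had 2 lower and 1 higher of 15 peaks, and Col4a1 had 1 lower of 13, which Col4a2 shares. The shared lower call and the higher Col4a2 call were lost whichever library was left out. The other lower Col4a2 call was lost without wild-type replicate 2.

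Col18a1, the multiplexin whose C-terminal fragment is endostatin, had 3 higher and 0 lower of 16 peaks. The peak at +15.3 kb, in an intron, stood at 5.52 and 5.88 in wild type and at 6.42 and 6.54 in Hox13-/- (difference 0.78, SE 0.13, limma adjusted p = 8.0e-08). The others differed by 0.50 and 0.45 and were each lost when 1 library was left out. At Col23a1, a transmembrane collagen, 3 of 21 peaks were higher and 0 lower. The peak at +121 kb stood at 5.70 and 5.42 and at 6.28 and 6.31 (difference 0.73, SE 0.13, adjusted p = 6.1e-07) and the one at +254 kb, nearest to Phykpl, at 5.92 and 5.58 and at 6.31 and 6.54 (difference 0.67, SE 0.13, adjusted p = 5.8e-06). The groups were apart at both, whereas the third, with a difference of 0.55, lost its call without Hox13-/- replicate 1 (adjusted p = 0.284). Among the remaining classes, Col28a1 had 2 higher of 7 peaks (differences 0.43 and 0.51), and Col6a6 1 higher (0.55) and 1 lower (-0.40) of 4. Both Col28a1 calls and the lower Col6a6 call were lost when 1 library was left out (adjusted p up to 0.115, 0.0824 and 0.0888), and the higher Col6a6 call was kept.

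The genes that act on collagens were described in the same way. The list held 44 genes for hydroxylation and folding, propeptide cleavage, cross-linking, collagen receptors and degradation, with 262 peaks, none of them shared with the collagen peaks. Of these, 16 were lower (6.11%, against 8.31% of all peaks) and 17 higher (6.49%, against 11.4%), with a median difference of -0.04 and 0 past 2-fold. The 19 genes of hydroxylation and folding had 10 lower and 7 higher of 118 peaks, the 8 of propeptide cleavage 3 and 6 of 57, the 5 of cross-linking 1 and 0 of 21, the 7 receptors 2 and 2 of 40, and the 5 of degradation 0 and 2 of 26.
Near P4ha2, a subunit of the prolyl hydroxylase, 1 of 13 peaks was lower and 2 were higher. The lower peak, at -30.9 kb, is nearest to the start of Pdlim4. It stood at 6.58 and 6.91 in wild type and at 5.96 and 6.03 in Hox13-/- (difference -0.75, SE 0.13, limma adjusted p = 2.6e-07). For Serpinh1, the collagen chaperone HSP47, a peak at +41.1 kb stood at 5.36 and 5.45 and at 4.80 and 4.86 (difference -0.57). In the other direction, a peak at -24.2 kb from the start of Fkbp14, a prolyl isomerase of the endoplasmic reticulum, stood at 4.97 and 5.51 and at 6.18 and 6.20 (difference 0.95, SE 0.13, adjusted p = 3.9e-11). At Pcolce2, an enhancer of procollagen C-proteinase, 1 of 8 peaks was lower and 2 intronic ones were higher, with a difference of 0.64 each. At P3h2, a prolyl hydroxylase, 1 intronic peak differed by 0.65. A lower peak at +44.0 kb from Loxl3, a lysyl oxidase, lay at Pcgf1 (difference -0.75), and one at -44.1 kb from Itga10, a chondrocyte collagen receptor, was nearest to Lix1l (difference -0.53). The calls given here with a difference were each kept with any 1 library left out.

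The position limit of 50 kb fell between peaks with small differences. The last ones inside, at -49.6 and -49.9 kb from Col4a1, differed by 0.19 and -0.09, and the first ones outside, at -50.1 kb from Col24a1 and -50.2 kb from Col5a1, by -0.17 and 0.03. The peak set aside at Col19a1, on chromosome 1 from 24611514 to 24616207 (mm10), stood at 18.7 and 18.7 in wild type and at 18.8 and 18.8 in Hox13-/- (difference 0.11, limma adjusted p = 0.26), while the next highest collagen peak had a mean of 8.15.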

How the data were processed

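ATAC-seq reads were aligned by the authors to mm10 with Bowtie2 2.3.1, and peaks were called with MACS2 2.1.1.20160309 in each library, merged and quantified with HOMER 4.9.1, whose differential command runs DESeq2. SAMtools 1.4.1 made the alignment files. Versions are from the submitters' processing notes. Handling of duplicate reads, blacklisted regions and the Tn5 offset was not given in the sources used here. The values deposited per library are rLog, on a log2 scale and shrunk, and a further deposited column lists the libraries in which each peak was called. They hold no read numbers, so neither the depth of a peak nor a counting interval can be given. The deposited table also has the authors' own fold changes and p-values, which were not used.

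Genotypes were compared with limma 3.58.1 in R 4.3.3 over all 61954 peaks (genotype as the only term, variance trend, two-sided, Benjamini-Hochberg). With 2 libraries per genotype an exact permutation test cannot go below p = 0.333, so the p-values rest on the spread shared across peaks. On simulated data of the same size, 67 of 67 peaks changed by 1.5, 67 of 67 changed by 1 and 35 of 66 changed by 0.5 were recovered, with 13 false calls. Far fewer peaks were changed there than were called in the data, so the recovered shares need not hold for the data. Genes were taken from GENCODE M21, with 0 peaks beyond the ends of the chromosomes. Promoter peaks had their midpoint within 1 kb of a gene start. Where a collagen gene had several, the values given by gene are those of the peak with the highest mean rLog. Sequences were read from the mm10 genome with pysam 0.24.0.

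The members, classes, gene lists and tests were chosen with earlier results of these data known. Named were the promoter peaks, the 12 lower and the 12 higher called peaks with the largest differences and non-overlapping genotypes, any peak past 2-fold, the gene with most called peaks of each class, the cartilage and bone collagens, the peaks at the 50 kb limit and in each direction the 4 processing-gene peaks of lowest p. Further peaks mentioned, at Col4a1, Col4a2 and Col4a4 and the smaller called ones at Col8a1, were chosen after their values were seen. Alternatives covered scaling, the variance model, filters on low values, GC content, a replicate block, left-out libraries, thresholds and the membership rule.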

Additional observations from a re-analysis of the deposited data

How the results depend on the processing

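The 24 largest called differences kept their direction in every alternative fit that included them, and 18 of them kept their call with any 1 library left out, against 6 of the other 33 called collagen peaks, of which 27 lost it at least once. Leaving out each library in turn gave 13 to 17 lower and 26 to 30 higher collagen peaks, 0 to 2 lower promoter peaks, 9 to 12 lower and 9 to 17 higher peaks of processing genes, and 21 to 23 of the 24 named peaks. Such a fit rests on 3 libraries and assumes that the lone library varies like the others. Leaving out a library or raising a threshold could not reverse the direction of the 24 peaks, which were chosen for non-overlapping genotypes. Their choice by size also favours a kept call. The lowest counts came without Hox13-/- replicate 1, except that 0 lower promoter peaks were also left without wild-type replicate 1, 9 lower peaks of processing genes also without Hox13-/- replicate 2, and 26 higher collagen peaks and 21 of the named peaks also without wild-type replicate 2. A difference of 1.5-fold left 3 lower and 10 higher collagen peaks, 0 lower promoter peaks, 2 lower and 5 higher peaks of processing genes and 13 of the named peaks, and one of 2-fold left 0 and 1, 0, 0 and 0, and 1. An adjusted p under 0.01 left 0 lower promoter peaks and 8 lower and 11 higher peaks of processing genes. Median centring gave 2 lower promoter peaks. Among the upper 50% of peaks by mean signal, which hold 163 of the 312 members, 13 lower collagen peaks were called. Gene bodies alone (203 peaks) held 12 lower and 22 higher, and the 227 peaks with a collagen gene start nearest held 14 lower. Quantile and cyclic loess scaling, a fit without the variance trend, GC correction, and windows of 25 and 100 kb kept the collagen counts within 1.5 times. Leaving out Col25a1, or peaks within 1 kb of another gene's start (19 lower and 34 higher of 288), was added after the data were seen and did so too. Replicate numbers 1 and 2 did not pair the libraries, since deviations of equal numbers correlated at -0.0106 across peaks, and the replicate block gave 23 lower and 34 higher collagen peaks. With 1 library left out, the median difference changed sign at the fibrillar (-0.0177 to 0.0419), network (-0.0177 to 0.0364) and FACIT collagens (-0.0054 to 0.0473). It kept its sign at the beaded filament (0.0192 to 0.096) and transmembrane collagens (0.0579 to 0.0819) and the multiplexins (0.1327 to 0.2066). The same held for Col26a1 with Col28a1 (0.0086 to 0.0646) and for Col7a1 (-0.2316 to -0.037). Depth per peak cannot be read from rLog. Recovery of 35 of 66 simulated differences of 0.5 does not give the share missed here. Far fewer peaks were changed in the simulation than were called in the data. Over all peaks, uncalled ones had observed differences from -0.338 to 0.338, so an absent call does not exclude a difference of that size.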
